A study of Mus musculus with 2 samples.

Results

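B lymphocytes were a small part of the newborn mouse lung: 104 of the 9944 cells profiled by Drop-seq met the rule used here. A cell was counted as a B lymphocyte when it held at least 2 UMIs (unique molecular identifiers, each standing for 1 captured transcript) summed over *Cd79a*, *Cd79b*, *Ighm* and *Ms4a1*, fewer than 3 UMIs over the complement genes *C1qa*, *C1qb* and *C1qc*, fewer than 3 of the collagen gene *Col1a2*, fewer than 2 of the endothelial gene *Pecam1*, and 0 of the epithelial gene *Epcam*. Whole lungs of wild-type female C57BL/6J mice at postnatal day 1 were dissociated to single cells, with no sort for any cell type, and 1 mouse was used for each of 2 libraries, called Batch 1 and Batch 2. There was no treatment and no second genotype, so the design holds 1 condition measured in 2 mice, and mouse and library cannot be told apart. Batch 1 gave 33 B lymphocytes of 2389 cells, or 1.38% (Wilson 95% interval 0.985 to 1.93%). Batch 2 gave 71 of 7555 cells, or 0.940% (0.746 to 1.18%), and these intervals, which cover counting error only, overlapped. B lymphocytes were set against 864 other cells (143 in Batch 1 and 721 in Batch 2), called other immune cells below. These had at least 2 UMIs over the pan-leukocyte and myeloid genes *Ptprc*, *Laptm5*, *Tyrobp*, *Fcer1g* and *Spi1*. B lymphocytes were also set against 48 T and natural killer cells (9 and 39). Such cells had at least 2 UMIs over *Cd3d*, *Cd3e*, *Cd3g*, *Trbc1*, *Trbc2*, *Cd7*, *Nkg7* and *Klrd1*, met the same limits and were not B lymphocytes by the rule. They were not removed from the other immune cells, so the 2 sets could share cells and the 2 comparisons are not independent.

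B lymphocytes make antibodies. During their development the immunoglobulin heavy chain is assembled first and is held by a surrogate light chain, encoded by *Vpreb1*, *Vpreb2* and *Igll1*, while the recombinase genes *Rag1* and *Rag2* are active and *Il7r* transmits a survival signal; a kappa or lambda light chain then replaces the surrogate, and the finished receptor is carried to the surface with its signalling partners Cd79a and Cd79b. Before birth this takes place mainly in the liver, and around birth it moves to the bone marrow. Maturing B cells gain *Ms4a1*, the receptor for the survival factor BAFF (*Tnfrsf13c*) and the class II molecules with which they present antigen to T cells.

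In GRCm38 the genes of the rule lie apart from each other. *Cd79a* is at chr7:24897381-24902197 on the plus strand, *Cd79b* at chr11:106311341-106314762 on the minus strand, *Ighm*, the constant region of the mu heavy chain, at chr12:113418558-113422730 on the minus strand, and *Ms4a1*, which encodes CD20, at chr19:11249675-11266241 on the minus strand. The kappa constant gene *Igkc* is at chr6:70726435-70726966, *Vpreb3* at chr10:75943057-75949657, *Ly6d* at chr15:74762056-74763620 and *Cd22* at chr7:30865402-30880342. Promoters of 4 genes are printed because these genes are used at successive steps of the lineage: *Igll1* for the surrogate light chain, *Vpreb3* for the immature cell, *Cd79a* for the receptor and *Cd22* for the receptor's inhibitor. Each runs 5′ to 3′ on the strand of its gene, from 250 bases before to 50 bases after the RefSeq start (GRCm38.p6), and lies at chr7:24897247-24897546 on the plus strand for *Cd79a*, chr7:30878979-30879278 on the minus strand for *Cd22*, chr10:75948050-75948349 on the plus strand for *Vpreb3* and chr16:16863936-16864235 on the minus strand for *Igll1*. Capitals mark matches, on either strand, to the octamer ATGCAAAT, to the EBF1 core CCCNNGGG and to the E box CAGGTG.
Cd79a: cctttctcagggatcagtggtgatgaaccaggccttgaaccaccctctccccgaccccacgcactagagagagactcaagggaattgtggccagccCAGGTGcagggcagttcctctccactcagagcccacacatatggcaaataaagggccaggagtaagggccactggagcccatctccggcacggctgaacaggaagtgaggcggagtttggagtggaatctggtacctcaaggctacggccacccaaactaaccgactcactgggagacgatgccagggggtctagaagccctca
Cd22: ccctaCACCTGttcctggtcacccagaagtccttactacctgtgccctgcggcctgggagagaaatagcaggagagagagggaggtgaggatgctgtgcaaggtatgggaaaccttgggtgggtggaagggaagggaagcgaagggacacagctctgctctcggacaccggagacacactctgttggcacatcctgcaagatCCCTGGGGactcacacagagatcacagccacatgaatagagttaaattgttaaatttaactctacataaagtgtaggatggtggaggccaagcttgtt
Vpreb3: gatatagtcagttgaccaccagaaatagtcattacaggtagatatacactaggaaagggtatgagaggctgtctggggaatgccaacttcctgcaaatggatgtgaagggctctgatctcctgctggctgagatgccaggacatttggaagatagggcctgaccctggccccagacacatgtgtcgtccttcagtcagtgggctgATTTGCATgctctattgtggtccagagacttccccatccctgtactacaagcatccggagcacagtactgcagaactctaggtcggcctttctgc
Igll1: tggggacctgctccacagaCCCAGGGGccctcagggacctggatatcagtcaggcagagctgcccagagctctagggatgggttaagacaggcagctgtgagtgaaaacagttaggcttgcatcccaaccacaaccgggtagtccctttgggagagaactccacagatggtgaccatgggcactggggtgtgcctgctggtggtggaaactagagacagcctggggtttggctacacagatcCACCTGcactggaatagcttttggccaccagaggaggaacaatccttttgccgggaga

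The octamer, the letters bound by Pou2f2 with its partner Pou2af1, was in the *Vpreb3* window alone among the 4, at base -45 from the start and in reverse. The EBF1 core stood at base -48 of *Cd22* and base -231 of *Igll1*, and the E box at base -154 of *Cd79a*, base -245 of *Cd22* and base -8 of *Igll1*. Such short words are common: 1.74% of 32851 mouse promoters of this length held the octamer, 13.7% the EBF1 core and 20.2% the E box. Counted by gene, the shares were 1.97%, 15.4% and 22.6% of 27025 genes. Of 79 B lineage genes looked up, 59 had a promoter in the table, and 3, 14 and 24 of the 59 (5.08%, 23.7% and 40.7%) held the 3 words. Among the 156 genes with a promoter that were higher in B lymphocytes than in other immune cells the shares were 4.49%, 23.7% and 16.7%, beside 1.64%, 20.7% and 17.5% of the 2322 genes tested in that comparison that had one. A match is a description of the letters and not a binding site.

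The 104 cells carried 67313 UMIs in Batch 1 and 152894 in Batch 2, with a median of 1390 UMIs and 681 genes per cell in Batch 1 and of 1518 UMIs and 776 genes in Batch 2. The cells were chosen on the 4 rule genes, so their levels are a description: the median cell held 10 of these UMIs in Batch 1 and 6 in Batch 2, and the richest held 35 and 87. *Ighm* had a UMI in 28 of 33 and 63 of 71 cells, *Cd79a* and *Cd79b* each in 25 of 33, and *Ms4a1* in 25 of 33 but 27 of 71. Only 7 cells sat at the threshold with exactly 2 UMIs, and 57 cells just outside it held 1. Taking 6 B cell genes that the rule did not use (*Igkc*, *Cd22*, *Vpreb3*, *Ebf1*, *Pax5* and *Ly6d*), at least 1 of them was seen in 2 of the 7 cells just inside, in 4 of the 57 just outside and in 95 of the 97 with 3 or more rule UMIs. The limits on other lineages removed 13 cells, 9 of them for *Epcam*. No barcode was shared between the batches. In Batch 2, 31 of the 71 B lymphocytes (43.7%) had over 10% mitochondrial counts, against 25.7% of all Batch 2 cells, and in Batch 1 none did.

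The B lymphocyte label held on genes outside the rule. *Igkc* had a UMI in 29 of 33 B lymphocytes of Batch 1 (87.9%, Wilson 95% interval 72.7 to 95.2%) and in 50 of 71 of Batch 2 (70.4%), but in 0.170% and 0.147% of all other cells. *Cd22*, which recruits phosphatases to damp the receptor, was seen in 9 of 33 and 11 of 71, and in 0 of 143 and 2 of 721 other immune cells; the fixed marker was thus present but in a minority of cells at this depth. *Pax5*, which commits a cell to the B lineage, was found in 13 of 33 and 28 of 71. Other immune cells had median depths of 1455 and 1983 UMIs, beside 1390 and 1518 in B lymphocytes.

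**Figure D1:**
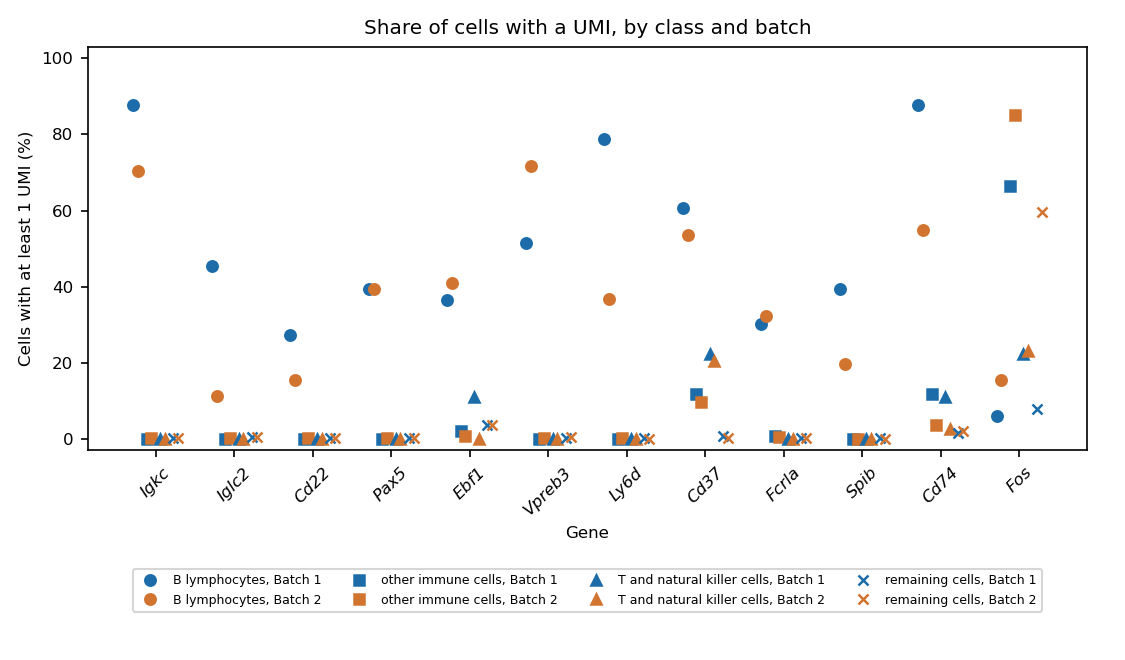
Share of cells with at least 1 UMI (vertical axis, %) for 12 genes (horizontal axis) in B lymphocytes, other immune cells, T and natural killer cells and all remaining cells, with Batch 1 in blue and Batch 2 in orange. *Igkc* stood at 87.9% and 70.4% in B lymphocytes, while *Fos* was more often seen in other immune cells than in B lymphocytes.

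Within each mouse the UMIs of a class were added up into 1 profile, given as CPM (the UMIs of a gene scaled to a fixed total for the class), and the profiles were compared with the mouse as a block. Against other immune cells 261 genes were higher in B lymphocytes and 408 lower of 3273 tested (edgeR, adjusted p under 0.05), which is 7.97% and 12.5% of the genes tested. The counts were smaller with other methods: 68 and 115 with DESeq2, and 93 and 201 in edgeR with no block. The 4 rule genes, the limit genes and the genes that define the comparison cells were left out of every count below. Many of the B cell genes could pass the filter on low counts only through B lymphocytes, and many markers of other cell types only through the comparison cells, and so had to differ; their counts are given as a description.

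Genes of B lineage identity were higher in B lymphocytes in 15 of 15 tested cases (22 listed, 18 in the tables), with a median difference of 6.96 on the log2 scale when genes absent from the other class are set at their bound, beside -0.03 over all genes tested. *Igkc* had 149 UMIs in Batch 1 and 235 in Batch 2 B lymphocytes (2214 and 1537 CPM) and 0 and 2 UMIs in other immune cells, a ratio of 1893 with a counting interval of 521 to 15691. *Vpreb3*, which assists assembly of the early receptor, had 68 and 190 UMIs against 0 and 2, a ratio of 1272 (349 to 10561). Both genes could pass the filter on low counts only through B lymphocytes, so these gaps are a description. *Cd22* had 14 and 16 UMIs against 0 and 2, a ratio of 148 (37.5 to 1277). *Tnfrsf13c*, the BAFF receptor, had 26 and 17 UMIs against 0 and 0 and was at least 141-fold higher, taking 3 counts over both batches as the floor. *Ly6d*, a surface protein of committed B cell progenitors, had 75 and 72 UMIs against 0 and 4 (log2 difference 8.09, SE 0.48). *Fam129c*, with 10 and 47 UMIs against 2 and 1, and *Gm19980*, an unnamed gene model with 24 and 24 against 0 and 0, were also among the 12 genes with the largest rise, and *Gm19980* was at least 158-fold higher. *Mzb1*, a chaperone of the secretory pathway that helps antibody assembly, had 14 and 65 against 0 and 5 (log2 difference 7.26, SE 0.62). The smallest rises among the 15 were those of *Ptprcap*, a partner of the phosphatase CD45, at 4.06 and *Cd37*, a tetraspanin, at 3.32 on the log2 scale. *Cd37* was also higher than in T and natural killer cells, by 2.81.

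**Figure D2:**
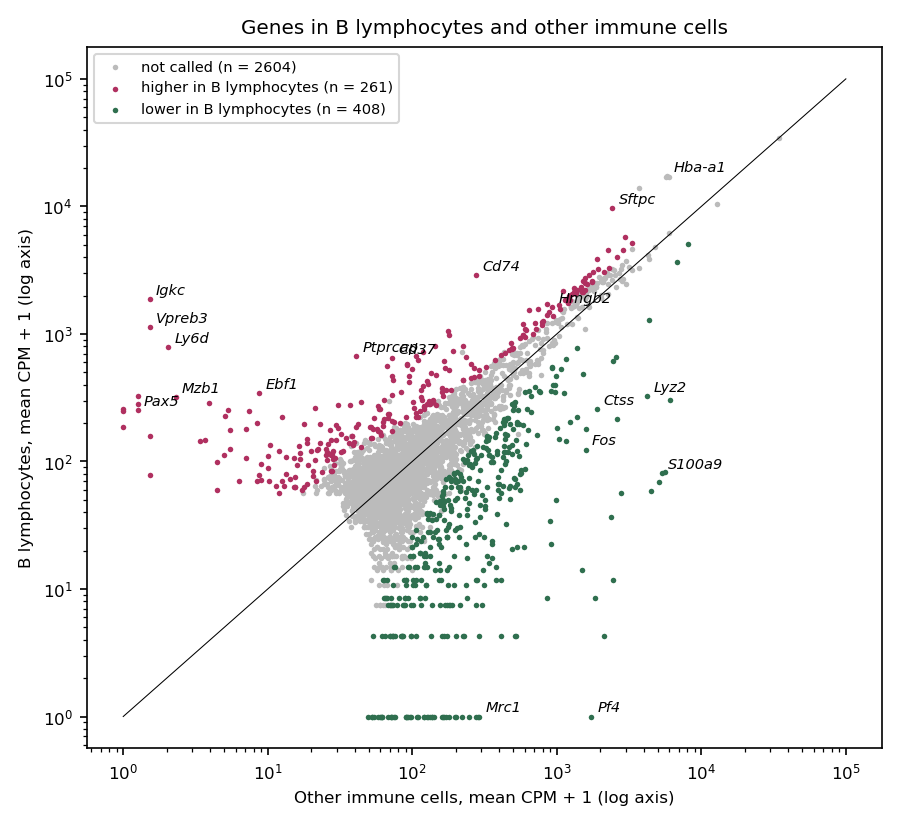
Mean CPM + 1 over the 2 batches in other immune cells (horizontal log axis) and B lymphocytes (vertical log axis) for each of the 3273 genes tested, coloured by the edgeR call, with the line of equal level. *Igkc*, *Vpreb3* and *Ly6d* lie far above the line near the left edge, where other immune cells had few or no UMIs, and *S100a9*, *Lyz2* and *Ctss* lie below it.

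Of 17 transcription factors of B cells tested, 13 were higher in B lymphocytes and none lower, with a median log2 difference of 3.19. *Pax5* had 14 and 45 UMIs in B lymphocytes against 0 and 1 in other immune cells, and *Ebf1*, which opens B cell genes early in the lineage, 21 and 57 against 3 and 8 (log2 difference 5.89, SE 0.53). *Spib*, an ETS factor, had 15 and 23 against 0 and 0, at least 125-fold higher. *Pou2af1*, the B cell partner of octamer factors, had 6 and 30 against 1 and 2, a ratio of 118 (37.4 to 601). *Tcf3*, which acts with *Ebf1*, rose by 3.72, *Bach2*, which holds back plasma cell fate, by 4.59 and *Bcl11a*, required for early B cells, by 4.25 on the log2 scale. *Myb* and *Sox4*, both needed in lymphoid progenitors, were carried mostly by Batch 2: *Myb* had 5 and 48 UMIs (74.3 and 314 CPM) and *Sox4* 7 and 50. The difference of *Sox4* was 1.93 (edgeR adjusted p = 0.0117) and passed no test with DESeq2 (adjusted p = 0.313) or with no block (edgeR adjusted p = 0.0790). *Ikzf1*, *Irf8*, *Arid3a* and *Runx1*, which myeloid cells also use, were not called, with differences of 1.03, 1.18, 0.58 and -1.75, though *Runx1* passed as lower with no gene filter (-1.92) and with the rule's limits put on the comparison cells (-1.83).

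Downstream of the receptor, 3 of 11 signalling genes tested rose, among them *Blnk*, the adaptor that B cells use (10 and 22 UMIs against 1 and 3; log2 difference 6.00, SE 0.67), and *Prkcb* (2.40, adjusted p = 0.00376 in edgeR, lost with no block). Of the kinases that myeloid cells share, *Syk*, *Btk* and *Lyn* were not called with all members. *Syk* had 74.3 and 320 CPM in B lymphocytes and 71.6 and 96.0 in other immune cells (log2 difference 1.23, edgeR adjusted p = 0.0585). It passed with at least 3 rule UMIs per cell (adjusted p = 0.0257), with the rule's limits put on the comparison cells (0.0166) and without 18 cells rich in markers of other types, described below (1.54, 0.00145), all in edgeR. *Btk* had 74.3 and 111 against 56.5 and 87.1, and *Lyn* 149 and 183 against 139 and 127. Among inhibitors of the receptor, *Cd22* and *Siglecg*, a lectin that restrains the receptor (17 and 39 UMIs against 2 and 2), rose. The Fc receptor-like *Fcrla*, counted in the same list, rose too. *Fcgr2b*, the inhibitory receptor for IgG, had 0 and 3 UMIs against 42 and 363 (19.6 CPM at most against 158 and 190, log2 difference -3.80, SE 0.68). *Cd300a* also fell, by 2.58, but the call was lost with DESeq2 and with no block. *Ptpn6*, the phosphatase recruited by several of these receptors, had 357 and 177 CPM against 222 and 159, with no call.

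The light chain in these cells was mostly kappa. *Igkc* alone was seen in 16 of 33 and 44 of 71 cells, both *Igkc* and *Iglc2* in 13 and 6, *Iglc2* alone in 2 and 2, and neither in 2 and 19. *Iglc2*, a lambda constant gene at chr16:19198396-19200351, gave 40 of the 189 light chain UMIs in Batch 1, or 21.2% (Wilson interval 15.9 to 27.5%), and 9 of 244 in Batch 2, or 3.69% (1.95 to 6.86%). The 2 intervals did not overlap, but they treat each UMI as independent, and UMIs come grouped in cells. *Igkc* in 1 cell gave 36 of the 189 UMIs of Batch 1, and in 1 cell 70 of the 244 of Batch 2. The intervals are thus too narrow, and with 1 mouse in each batch the difference between mice has no replicate. *Iglc2* also shares sequence with other lambda constant genes, and a UMI is not assigned to an allele. It was seen in 0.340% and 0.347% of all other cells, and the part of free RNA, or of 2 cells under 1 barcode, in the cells with both light chains was not tested. The variable segments gave few UMIs in the 3′ reads (16 in Batch 1 and 25 in Batch 2 over heavy, kappa and lambda segments). The constant genes of switched isotypes (*Ighg*, *Igha* and *Ighe*, 5 genes in the tables) had 0 UMIs in B lymphocytes of either batch. A count of 0 allows up to 9.09% of the cells in Batch 1 and 4.23% in Batch 2 to hold a UMI of them.

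Genes of early B cell development were mostly higher in B lymphocytes, and some of them differed in level between the mice. Of 18 listed genes, 8 could be tested, and 7 were higher in B lymphocytes than in other immune cells: *Vpreb3*, *Il7r*, *Myb*, *Sox4*, *Cd24a*, *Ltb* and *Dnajc7*, with a median over the 8 of 2.52. *Il7r*, the interleukin-7 receptor, had 4 and 47 UMIs in B lymphocytes (59.4 and 307 CPM) and 8 and 55 in other immune cells (30.2 and 28.9 CPM; log2 difference 2.74, edgeR adjusted p = 0.00401), and the call was lost with DESeq2 (adjusted p = 0.129). All 4 *Il7r* UMIs of Batch 1 came from 1 cell, which held 6 UMIs of T and natural killer markers and none of *Igkc*. Without the 18 cells rich in other markers, *Il7r* had 0 and 42 UMIs and did not enter the test against other immune cells. *Cd24a*, a surface protein high on immature B cells, had 312 and 628 CPM against 52.8 and 134 in other immune cells (2.30, SE 0.32). *Ltb*, which encodes lymphotoxin beta, went the other way between mice, with 401 and 124 CPM. Others lay close in the 2 mice: *Vpreb3* had 1010 and 1243 CPM, *Dnajc7* 223 and 222, and *Cd93*, which was not called, 89.1 and 91.6.

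The surrogate light chain and recombinase genes were too low for the test but were found almost solely in Batch 2. *Igll1* had 1 and 27 UMIs, *Vpreb1* 0 and 14, *Vpreb2* 0 and 4, *Rag1* 0 and 11 and *Rag2* 2 and 0. Summed over the 5 early genes, B lymphocytes held 3 UMIs in Batch 1 and 56 in Batch 2 (44.6 and 366 CPM), other immune cells 3 and 0 and T and natural killer cells 0 and 0. A UMI of an early gene was present in 2 of 33 cells of Batch 1 (6.06%, interval 1.68 to 19.6%) and in 17 of 71 of Batch 2 (23.9%). With every cell thinned to 600 UMIs the shares were 3.03% and 15.5%, and with the 40 cells of Batch 2 that had at most 10% mitochondrial counts the share there was 25.0%. With 1 mouse in each batch this difference has no replicate either.

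Cells with and without *Ms4a1* were compared as a description, since *Ms4a1* is a rule gene: a cell without it had to qualify on the other 3. The class split evenly, with 52 cells in each set, but 25 of the 33 cells of Batch 1 had *Ms4a1* and 27 of the 71 of Batch 2. *Il7r* was seen in none of the 52 cells with *Ms4a1* (0 of 25 and 0 of 27) and in 25 of the 52 without it (1 of 8 and 24 of 44). Of these 25, the cell of Batch 1 and 2 of Batch 2 had 6, 53 and 15 UMIs of T and natural killer markers and no *Igkc*. Another cell of Batch 2 had 450 epithelial UMIs. Early genes were seen in 1 of 52 cells with *Ms4a1* and 18 of 52 without, and *Myb* in 5 and 27. The pattern ran the opposite way for *Cd74* and *Tnfrsf13c*, genes of maturing cells. *Cd74*, the invariant chain that guides class II molecules, was seen in 47 of 52 cells with *Ms4a1* and 21 of 52 without, and *Tnfrsf13c* in 18 and 2. *Bcl11a* (22 and 6) and *Ly6d* (38 and 14), described above as genes of early cells, went the same way as *Cd74*. In Batch 1 *Ly6d* was seen in 20 of 25 cells with *Ms4a1* and 6 of 8 without. *Igkc* was common in both sets, 44 and 35 of 52, and *Vpreb3* was seen in 28 and 40. Within Batch 2 alone the same order held, with *Cd74* in 23 of 27 cells with *Ms4a1* and 16 of 44 without, and *Il7r* in 0 of 27 and 24 of 44. Median depth did not favour the cells with *Ms4a1* there, at 1325 UMIs against 1693. In Batch 1 the cells without *Ms4a1* were only 8.

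**Figure D3:**
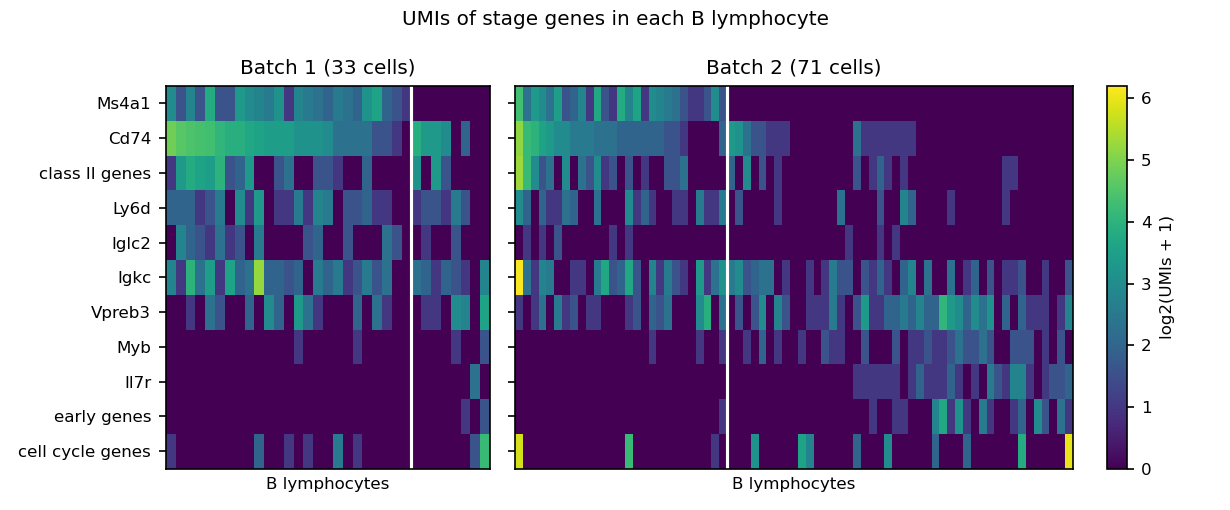
UMIs, as log2(UMIs + 1), of 11 genes or gene sums (rows) in each B lymphocyte (columns) of Batch 1 and Batch 2, with the white line dividing cells with *Ms4a1* (left) from cells without it. Columns are ordered by *Ms4a1*, then by the early genes or *Il7r*, then by *Cd74*. *Cd74* was seen in 47 of 52 cells left of the lines and 21 of 52 right of them, and *Il7r* in 0 and 25. Of the 25, 3 held at least 2 UMIs over the genes of T and natural killer cells.

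Genes of later stages were scarce. *Fcer2a* and *Ccr6* had 0 UMIs in both batches, *Cr2* 1 and 0, *Cd40* 2 and 2 and *Cxcr5* 0 and 3. Of 3 mature B cell genes that could be tested, *Cd44*, an adhesion receptor of activated and memory lymphocytes, was lower in B lymphocytes, with 29.7 and 45.8 CPM against 377 and 398 (log2 difference -3.31), and no other passed. Of the plasma cell list, 2 of 16 genes could be tested. *Mzb1*, which is on that list too, was higher, with the 14 and 65 UMIs given above. *Prdm1*, the master factor of plasma cells, had 0 and 1 UMIs, *Irf4* 0 and 7 and *Sdc1* 6 and 2. *Xbp1*, which drives secretion, had 5 and 5 and passed no test (-1.27). On the list of B-1 cells, the innate-like subset made mainly before and around birth, *Cd5* had 0 UMIs and *Cd9* and *Tppp3* were lower than in other immune cells (4 of the 11 listed genes were tested, with a median of -1.74). *Cd9* had 59.4 and 65.4 CPM in B lymphocytes against 505 and 519. Against T and natural killer cells, 1 of the 4 genes of this list that could be tested was higher in B lymphocytes and 2 were lower. Most genes of the list did not enter a test, and whether these cells included B-1 cells was not tested. The fetal lymphopoiesis list had 1 higher of 3 tested, *Hmga1*, a chromatin protein (1.13, edgeR adjusted p = 0.0249), whose call was lost with DESeq2, with no block and with cells of at most 10% mitochondrial counts.

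The class II antigen presentation genes were higher in B lymphocytes than in other immune cells in 4 of 5 tested cases, with a median of 2.24. *Cd74* reached 4486 and 1262 CPM against 479 and 70.8 (302 and 193 UMIs; log2 difference 3.69, SE 0.22), and was seen in 29 of 33 and 39 of 71 B lymphocytes but 17 of 143 and 27 of 721 other immune cells. *H2-Ab1*, with 713 and 268 CPM against 234 and 33.0, *H2-Aa*, with 475 and 301 against 200 and 34.1, and *H2-Eb1*, with 386 and 249 against 196 and 31.5, encode the chains of the class II dimers and rose by 2.31, 2.24 and 2.02. All 4 calls were lost with no block, where the level difference between mice enters the error (edgeR adjusted p = 0.0691 for *Cd74* and 0.208, 0.238 and 0.284 for *H2-Aa*, *H2-Ab1* and *H2-Eb1*), and *H2-Eb1* was also lost with DESeq2 (adjusted p = 0.0892). Class II genes and *Cd74* were below the Batch 1 level in Batch 2 in both B lymphocytes and other immune cells. Among survival genes, both BAFF receptors *Tnfrsf13c* and *Tnfrsf13b* rose (*Tnfrsf13b* 253 and 118 CPM against 75.4 and 24.1) and *Bcl2a1b*, an inhibitor of apoptosis used by neutrophils, fell, with 0 and 10 UMIs against 74 and 496. Of 5 homing genes, *Itgb1*, the integrin beta chain for matrix, was lower (149 and 85.0 CPM against 256 and 266), a call lost with DESeq2 and with no block, and the chemokine receptor *Cxcr4*, with 5 and 34 UMIs, passed no test.

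Cell cycle genes were present in a few B lymphocytes. At least 2 UMIs over 10 such genes were found in 4 of 33 cells of Batch 1 and 11 of 71 of Batch 2, and in Batch 2 a pair of cells held 62 and 55 of the 189 UMIs. The cell with 55 was also the deepest, with 16930 UMIs, 87 rule gene UMIs and 70 of *Igkc*. Of 10 cell cycle genes tested against other immune cells, *Top2a*, *Rrm2*, *Mcm6*, *Pcna* and *Hmgb2* were higher, with a median over the 10 of 1.03. The largest difference was 1.86 (*Rrm2*, 7 and 9 UMIs). *Top2a*, which untangles replicated DNA, had 134 and 360 CPM against 106 and 118, and *Pcna*, the clamp of the replication fork, 193 and 242 against 41.5 and 93.4. None of the 5 calls held with DESeq2 or with no block. *Mki67* had 44.6 and 307 CPM against 45.2 and 144 with no call, and was called only without the 18 cells rich in other markers (1.13, edgeR adjusted p = 0.0252).

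The immediate early genes, which cells switch on within minutes of stress or stimulation, were lower in B lymphocytes: 9 of 11 tested fell and none rose, with a median of -1.62. *Fos* had 6 and 24 UMIs in B lymphocytes (89.1 and 157 CPM) and 327 and 3691 in other immune cells (1232 and 1936 CPM), a log2 difference of -3.71 (SE 0.24, edgeR adjusted p = 9.7e-08). *Dusp1*, a phosphatase of the stress kinases, had 59.4 and 98.1 CPM against 373 and 737, *Egr1* 29.7 and 71.9 against 482 and 311, and *Nr4a1*, a readout of antigen receptor signalling in lymphocytes, 14.9 and 58.9 against 196 and 226. B lymphocytes lay below other immune cells in both mice for these 4 genes. *Fos*, *Egr1* and *Dusp1* passed with DESeq2 and with no block as well, while *Jun*, *Junb*, *Ier2*, *Btg2* and *Zfp36* passed neither. *Jund* (0.07) and *Fosb* (-1.65) were not called. Over 13 immediate early genes the sums were 980 and 2283 CPM in B lymphocytes, 4711 and 6711 in other immune cells and 1782 and 4893 in T and natural killer cells. Within Batch 1 and Batch 2 *Fos* was lower in B lymphocytes than in other immune cells by 3.74 and 3.60 (edgeR log2 CPM with a prior count of 2). *Fos* also moved with the library: cells outside the immune classes had 80.5 CPM in Batch 1 and 1108 in Batch 2. The part of the library in the result was not tested.

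**Figure D4:**
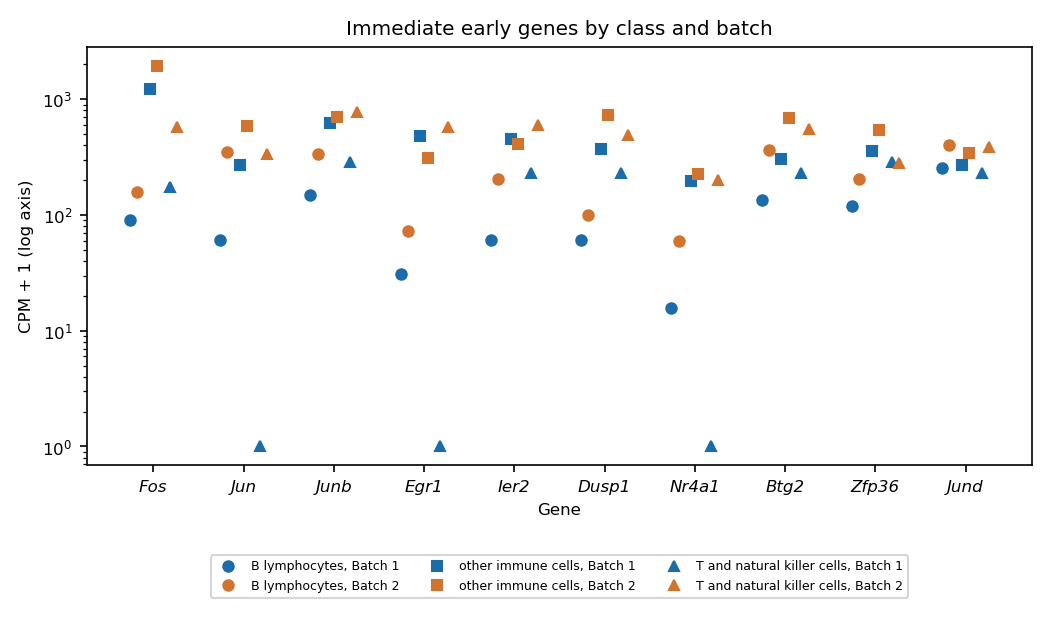
CPM + 1 (vertical log axis) of 10 immediate early genes (horizontal axis) in B lymphocytes, other immune cells and T and natural killer cells, with Batch 1 in blue and Batch 2 in orange. For *Fos* B lymphocytes had 89.1 and 157 CPM and other immune cells 1232 and 1936, and *Jund* showed no such gap.

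Markers of several other cell types were also lower in B lymphocytes. *S100a9* had 74.3 and 85.0 CPM in B lymphocytes against 3245 and 7376, *Lyz2* 609 and 39.2 against 6618 and 1807, and *Ctss* 282 and 229 against 1681 and 2106. All 10 macrophage and monocyte markers, all 8 neutrophil markers and all 3 basophil and mast cell markers that could be tested were lower in B lymphocytes. This is a description: *Csf1r*, *Cd68*, *Mrc1*, *Cd14*, *Csf3r*, *Cxcr2*, *Mmp9*, *Mcpt8* and *Hdc* had 0 UMIs in B lymphocytes and passed the filter only through the comparison cells. The lower genes also held *Gzma* (0 and 3 UMIs against 23 and 305), the matrix gene *Fn1* (2 and 8 against 90 and 564) and the club cell gene *Scgb1a1* (3 and 59 against 12 and 9893), whose difference of -3.55 became 0.045 with the rule's limits put on the comparison cells. The limit of 2 C1q UMIs in the rule, which was not put on the comparison cells, can lower macrophage markers by construction. It removed 1 cell with enough rule gene UMIs in Batch 1 and 0 in Batch 2. The 12 genes with the largest fall had 0 UMIs in all B lymphocytes, so their differences are bounds: *Pf4*, a platelet and megakaryocyte gene, was at least 65.3-fold lower, *Cd14* at least 26.8-fold, *Mrc1* at least 25.6-fold, *Ccr1* at least 20.8-fold and *Mcpt8* at least 15.3-fold.

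Against the 48 T and natural killer cells, which are lymphocytes too, 84 genes were higher in B lymphocytes (5.80% of 1448 tested) and 70 lower (4.83%) by edgeR, but only 2 and 7 by DESeq2 and 24 and 30 with no block. The B lineage set apart the classes here as well, with 10 of 11 identity genes and 8 of 9 transcription factors higher. *Igkc*, *Vpreb3*, *Ly6d*, *Chchd10*, *Mzb1* and *Pax5* had 0 UMIs in T and natural killer cells, where the bounds were at least 73.8-fold, 49.6-fold, 28.2-fold, 18.3-fold, 15.2-fold and 11.3-fold higher in B lymphocytes. *Chchd10*, a mitochondrial protein gene at chr10:75933130-75937747 next to *Vpreb3*, had 26 and 69 UMIs. Also among the 12 genes with the largest rise were *Sdc4*, a heparan sulfate proteoglycan (15 and 34 UMIs against 0 and 0), and *Cplx2*, a regulator of vesicle fusion (11 and 29 against 0 and 0). *Ptprcap* was shared, with 565 and 778 CPM in B lymphocytes and 345 and 548 in T and natural killer cells and no call.

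*Il7r*, which passed against other immune cells, was at 59.4 and 307 CPM in B lymphocytes and 517 and 347 in T and natural killer cells (-0.91, edgeR adjusted p = 0.411). The Batch 1 level in B lymphocytes came from the 1 cell with T and natural killer markers given above. Genes lower in B lymphocytes included several of cytotoxic and T cells: *Gzma*, a granzyme, had 0 and 3 UMIs against 23 and 304, the chemokine *Ccl5* 0 and 0 against 14 and 291, at least 176-fold lower, *Klrb1b* and *Klra5*, natural killer receptors, were at least 28.3-fold and 27.2-fold lower, and *Lck*, the kinase of the T cell receptor, had 0 and 1 UMIs against 7 and 16. Other immune cells held 23 and 305 UMIs of *Gzma*, so the lower *Gzma* in both comparisons may rest largely on the same cells. Basophil genes were lower too: *Mcpt8*, *Prss34* and *Hdc* were among the 12 with the largest fall, each with 0 UMIs in B lymphocytes. The comparison set was not pure. *Mcpt8*, a basophil protease, gave 19 UMIs, all from 1 cell, in Batch 1 and 147 UMIs, from 2 cells, in Batch 2, and *Cd74* gave its 43 and 22 UMIs in 1 cell of each batch, so that the lower *Mcpt8* and the smaller *Cd74* difference (1.81, lost with DESeq2 and with no block) rest on those cells. Of 9 immediate early genes tested, *Ier2* and *Dusp1* were lower in B lymphocytes and lost with DESeq2 and with no block, and *Fos*, at 89.1 and 157 CPM against 172 and 575, was just short of the threshold (-1.59, edgeR adjusted p = 0.0507); it passed with at least 3 rule UMIs per cell (-1.67, 0.0350) and without the 18 cells rich in other markers (-2.98, 0.000252).

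Markers of other cell types were also seen in these cells. Hemoglobin and other erythroid UMIs were in all 104 cells, with a median of 57 in Batch 1 and 10 in Batch 2, close to the 43 and 10 in other immune cells; 3 cells of Batch 1 held over 500, up to 3013. Epithelial markers, mostly *Sftpc*, had a median of 1 and 3 UMIs and a maximum of 937 and 450. T and natural killer markers were seen in 1 of 33 and 3 of 71 cells, and megakaryocyte markers in none. Taking limits of 5 UMIs for T and natural killer, neutrophil, endothelial and fibroblast markers, 10 for macrophage, 40 for epithelial and 500 for erythroid markers, 18 cells (9 in each batch) reached at least 1 limit and 86 did not.

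**Figure D5:**
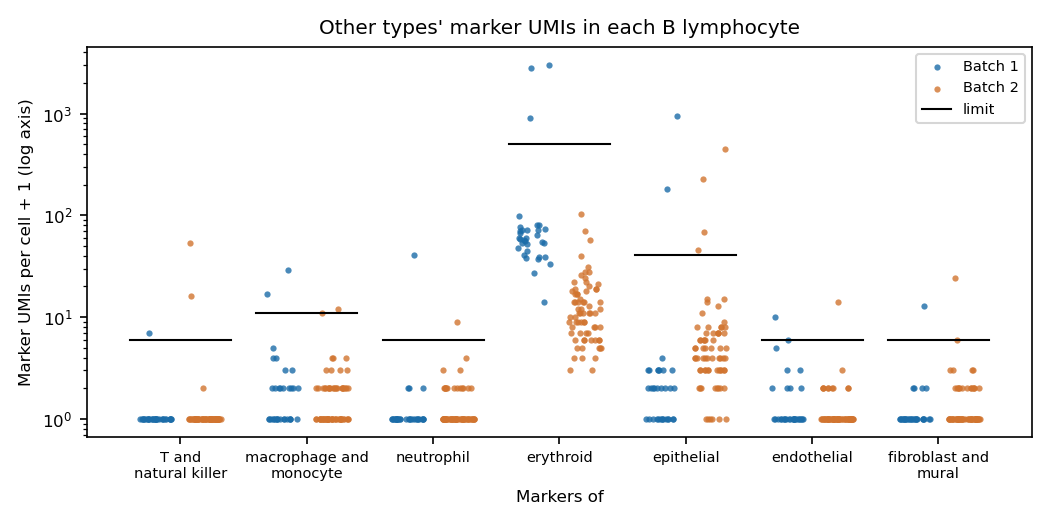
UMIs + 1 (vertical log axis) of the markers of 7 other cell types (horizontal axis) in each of the 104 B lymphocytes, with Batch 1 in blue, Batch 2 in orange and the limit for each type as a line. Hemoglobin markers were in every cell, a few epithelial-rich cells stand far above the rest, and 18 cells reached at least 1 limit.

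These 18 cells carried the epithelial signal of the class. *Sftpc*, the surfactant protein of alveolar type 2 cells, had 949 and 809 UMIs over all B lymphocytes and 14 and 157 over the 86 remaining cells, and its difference from other immune cells went from 1.92 to -1.66; the limits were set on these same markers, so the fall follows from them in part. *Igkc* kept 125 and 229 of its 149 and 235 UMIs in the 86 cells, *Cd74* 232 and 186 of 302 and 193, *Tnfrsf13c* 16 and 17 of 26 and 17, and *Spib* 10 and 23 of 15 and 23. *Fos* kept 1 and 8 of 6 and 24, and its difference from other immune cells went from -3.71 to -5.09. The hemoglobin genes *Hba-a1* and *Hbb-bs* were higher in B lymphocytes than in T and natural killer cells by 1.77 and 1.47 with all cells and by 0.74 and 0.60 without the 18. Of 129 gene calls followed under this setting, 118 kept their direction and their call without the 18 cells, 2 turned and 1 was lost, and the others no longer passed the filter on low counts.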

How the data were processed

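Each library was a Drop-seq run of 1 dissociated lung. The authors deposited a table of UMI counts per gene and cell for each library, already limited to cells with at least 500 genes, and made it with Drop-seq tools and, per the submitters' processing notes, Bowtie2 2.2.7 on mm10 reads tagged by exon; 1 alignment was kept per read, so near-identical genes (*Iglc* genes, variable segments, hemoglobins) can share reads. No unit but counts was used.

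Cells were chosen by the rule in the text, on all deposited cells with no mitochondrial limit. The members and all gene lists were chosen with earlier results of these data known. UMI counts were summed per class and mouse and tested in edgeR 4.0.16 (R 4.3.3; quasi-likelihood test, TMM, filterByExpr, Benjamini-Hochberg over all genes tested) with the mouse as a block. With 4 sums a comparison leaves 1 residual degree of freedom, and the 2 mice are the only replicates. Both sums of a batch come from the same mouse; deviations of the paired sums correlated with r = 0.254 over 3273 genes against other immune cells and 0.226 over 1448 against T and natural killer cells (log2 CPM, pseudocount 10). All 15 genes of the rule were left out. Named genes were the 12 with the largest change in each direction among those past the threshold, with a mean of at least 50 CPM in the higher class and the same direction in both batches, beside genes of the 25 lists; 1 gene is counted in the lists but not reported here. No doublet caller was run; markers of other types are given instead. Shares of cells have Wilson intervals, 0 counts a floor of 3, and both cover counting error only. A ratio against 1 to 3 UMIs has an exact 95% counting interval on sums over both batches. Alternatives were DESeq2 1.42.0, no block, no gene filter, at most 10% mitochondrial counts, at least 3 rule UMIs, the rule's limits on the comparison cells, cells thinned to 600 UMIs and leaving out either mouse. The scripts were tested on simulated data. Coordinates are from GENCODE M21 (GRCm38) and promoters from RefSeq. Cells were handled in Python 3.11.15 (pandas 2.3.3, numpy 2.4.6 and scipy 1.17.1), and figures drawn in matplotlib 3.10.9.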

Additional observations from a re-analysis of the deposited data

How the results depend on the processing

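With the mouse as a replicate block 261 genes were higher and 408 lower in B lymphocytes than in other immune cells. The fit with no replicate block gave 93 and 201, DESeq2 68 and 115, and no gene filter 169 higher genes. Against T and natural killer cells the 84 higher and 70 lower genes became 24 and 30 with no block and 2 and 7 with DESeq2, and the higher genes became 49 with no gene filter and 51 with cells of at most 10% mitochondrial counts. At an unadjusted p under 0.05 edgeR gave 1042 and 269 genes in both directions together, and DESeq2 463 and 102. All 93 higher genes with no block and all 68 with DESeq2 were among the 261, as were 142 of the 169 without a filter. The remaining counts stayed within 1.5 times.

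Among 138 gene differences followed under the alternatives 129 were called, and these had the same sign in both mice. With DESeq2 42 calls held and 72 were lost, and with no block 82 held and 47 were lost; 22 were lost with no gene filter, 12 with at least 2 of the 4 rule genes and 10 with the mitochondrial limit. Over all settings a difference with no call gained one 8 times, for *Runx1*, *Syk*, *Mki67* and *Fos*. The cause was not tested. 3 differences turned: *Scgb1a1* from -3.55 to 0.045 when the rule's limits were put on the comparison cells, and *Sftpc* and *Sftpb* to -1.66 and -2.10 without members rich in other types' markers, which by construction removes cells with many epithelial UMIs. That setting and the one requiring at least 2 of the 4 rule genes were chosen after seeing the data. Leaving out either mouse leaves no residual degree of freedom and no test; the difference of *Fos* was then -3.60 and -3.74, that of *Cd74* 4.09 and 3.22 and that of *Sftpc* 0.70 and 3.16. At a median of 1390 and 1518 UMIs per cell a gene seen in no B lymphocyte may still be expressed.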

Other observations

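*Klrd1*, a natural killer receptor, was seen in 5 of 9 and 20 of 39 cells of the T and natural killer set. The set was chosen partly on *Klrd1*, so this is a description. *Pf4*, a platelet chemokine, gave 344 UMIs in 2 cells of the Batch 2 set and 0 in Batch 1. Of the 104 B lymphocytes 32 also held at least 2 UMIs over the pan-leukocyte and myeloid genes, and 3 held at least 2 UMIs over the genes of T and natural killer cells. Without the 18 cells rich in other types' markers, early genes were seen in 2 of 24 B lymphocytes of Batch 1 and 17 of 62 of Batch 2, and *Iglc2* in 14 of 24 and 7 of 62, so that the differences between the mice in these shares were as large without those cells.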
